A study of Homo sapiens with 6 samples.

Results

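A set of 9 genes around the PML/RARα fusion and its retinoid receptors were followed in NB4, an established human acute promyelocytic leukemia (APL) cell line that carries the fusion. The genes were chosen by symbol: *PML*, *RARA*, *RARB*, *RARG*, *RXRA*, *RXRB*, *NCOR1*, *SP100* and *DHRS3*. All 9 were found among the 23368 symbols of the count tables, and all 9 passed the filter on low counts that left 13209 genes to be tested. Transcripts were counted in 6 RNA-seq libraries, 3 from not treated (n.t.) cells and 3 from cells that had received 10 µM of the maltol derivative maltonis 24 h earlier. No retinoid was added in either group and a single cell line was used, so the comparison speaks of NB4 cells at one dose and one time.

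In APL, a translocation joins the *PML* and *RARA* genes. RARα, the receptor encoded by *RARA*, binds retinoic acid and sits on DNA as a pair with an RXR receptor. Without ligand the pair holds corepressors such as NCOR1 at its target genes, and with ligand it releases them and activates transcription. The PML protein builds nuclear bodies together with SP100, and both genes are known to be inducible by interferon. Reads were counted by gene symbol, so reads of the fusion transcript fall on *PML* and *RARA* together with those of the normal alleles and cannot be told apart from them.

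Libraries held between 18492154 and 38205483 counts, and 3 counts, taken as the floor of detection, corresponded to between 0.0828 and 0.160 CPM (counts relative to library size, scaled by the TMM method). This floor covers counting error only. Replicate 1 of both groups carries another code in its library name than replicates 2 and 3. What the code stands for is not explained, and these libraries are called set A (replicate 1) and set B (replicates 2 and 3). All 8 myeloid markers that were checked were detected, with a summed level of 14108 to 16541 CPM in n.t. and of 8772 to 9271 CPM in maltonis-treated libraries, most of it from *MPO*. At a false discovery rate under 0.01, 4 of these markers were lower, *MPO*, *CD33*, *SPI1* and *CEBPA*, and 3 were higher, *AZU1*, *CSF3R* and *CTSG*. This makes 87.5% of these markers, against 64% of all genes tested. *CTSG* had a mean of 109 CPM in n.t. and of 553 CPM in treated cells. *PRTN3* was higher in each treated library than in each n.t. library but did not pass (edgeR, adjusted p = 0.0211). Of 5 T cell markers, *TRAT1* was at 0 in every library and *CD3E* had at most 2 counts, but *CD3D* gave nearly all of a summed level of 43.5 to 45.7 CPM in n.t. and of 15.3 to 16.0 CPM in treated cells. Of 5 B cell markers, *MS4A1* was at 0, and the summed level went from between 19.3 and 29.2 CPM to between 10.9 and 13.2 CPM. Of 7 erythroid and megakaryocyte markers, *HBB*, *HBG1*, *HBG2* and *PF4* were at 0, and the sum was 6.18 to 7.65 CPM in n.t. and 8.17 to 11.2 CPM in treated cells. The part of these markers in the results was not tested.

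The 2 stretches of reference sequence printed here hold matches to receptor hexamers, and whether receptors bind there was not tested. They were taken from RefSeq (GRCh38.p14, 250 bases before an annotated start, plus strand), on another build than the hg19 of the counts. In the stretch before the first listed start of *RARB* (chr3:25428013-25428262), capitals mark a direct repeat of 2 receptor hexamers separated by 5 bases (DR5), which begins 53 bases before the start. In the stretch before the first listed start of *RARA* (chr17:40308930-40309179), capitals mark 2 single hexamers, one on each strand, that begin 230 and 92 bases before the start.
RARB: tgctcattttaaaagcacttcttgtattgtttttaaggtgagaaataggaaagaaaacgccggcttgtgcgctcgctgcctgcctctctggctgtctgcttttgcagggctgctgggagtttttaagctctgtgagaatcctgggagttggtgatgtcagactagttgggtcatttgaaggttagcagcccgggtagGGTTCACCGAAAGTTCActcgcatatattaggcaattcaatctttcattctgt
RARA: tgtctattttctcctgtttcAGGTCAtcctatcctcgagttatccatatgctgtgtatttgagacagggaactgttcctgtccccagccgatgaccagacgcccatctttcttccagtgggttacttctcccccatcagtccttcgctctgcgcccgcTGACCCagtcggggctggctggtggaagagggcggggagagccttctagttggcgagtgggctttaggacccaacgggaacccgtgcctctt
The hexamers searched on both strands were AGGTCA, then AGTTCA, then GGGTCA and also GGTTCA, alone or as a direct repeat of any 2 of them with a spacer of 5 bases (DR5) or 2 bases (DR2). A single hexamer is also counted within each direct repeat. Among the 35116 promoter stretches of the reference, 0.074% held a DR5, 0.0313% a DR2 and 33.8% a hexamer. Of 19 listed starts of the genes studied, 1 held the DR5, none held a DR2, and 8 held a hexamer. The other listed starts of *RARB* held no DR5, and those of *RARA* held no hexamer. The interferon-response letters GAAA repeated after a spacer of 2 bases, present in 3.02% of all stretches, were found before 1 of the 19 starts, that of *RARG*. The letters TTC followed by GAA after a spacer of 3 bases, present in 6.57%, were found before 2 starts of *RARB*, where one match overlaps the DR5. The promoter of *PML* was not searched.

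At a false discovery rate (FDR) under 0.01, *SP100* was higher and *RXRA* was lower in maltonis-treated cells, while the other 7 genes did not pass. This makes 2 of 9 genes, or 22.2%, against 64% of all 13209 genes tested with edgeR’s quasi-likelihood test (31.9% higher and 32.1% lower). None of the 9 genes passed the fold change that the study also required, a criterion that together with the FDR was met by 20.3% of all genes. At an FDR under 0.05, 4 of the 9 genes passed, against 74% of all genes. The libraries of both groups did not overlap for 4 of the 9 genes, *PML*, *RXRA*, *RXRB* and *SP100* (44.4%, against 76.6% of all genes tested, 38.8% with maltonis higher and 37.8% with maltonis lower). Adjusted p-values below come from the same edgeR quasi-likelihood test with Benjamini-Hochberg adjustment over all genes tested, and intervals are 95% intervals of the log2 fold change. Replicates are described by the study as biological. With 3 libraries against 3, an exact permutation test of a single value cannot give less than p = 0.1.

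**Figure D1:**
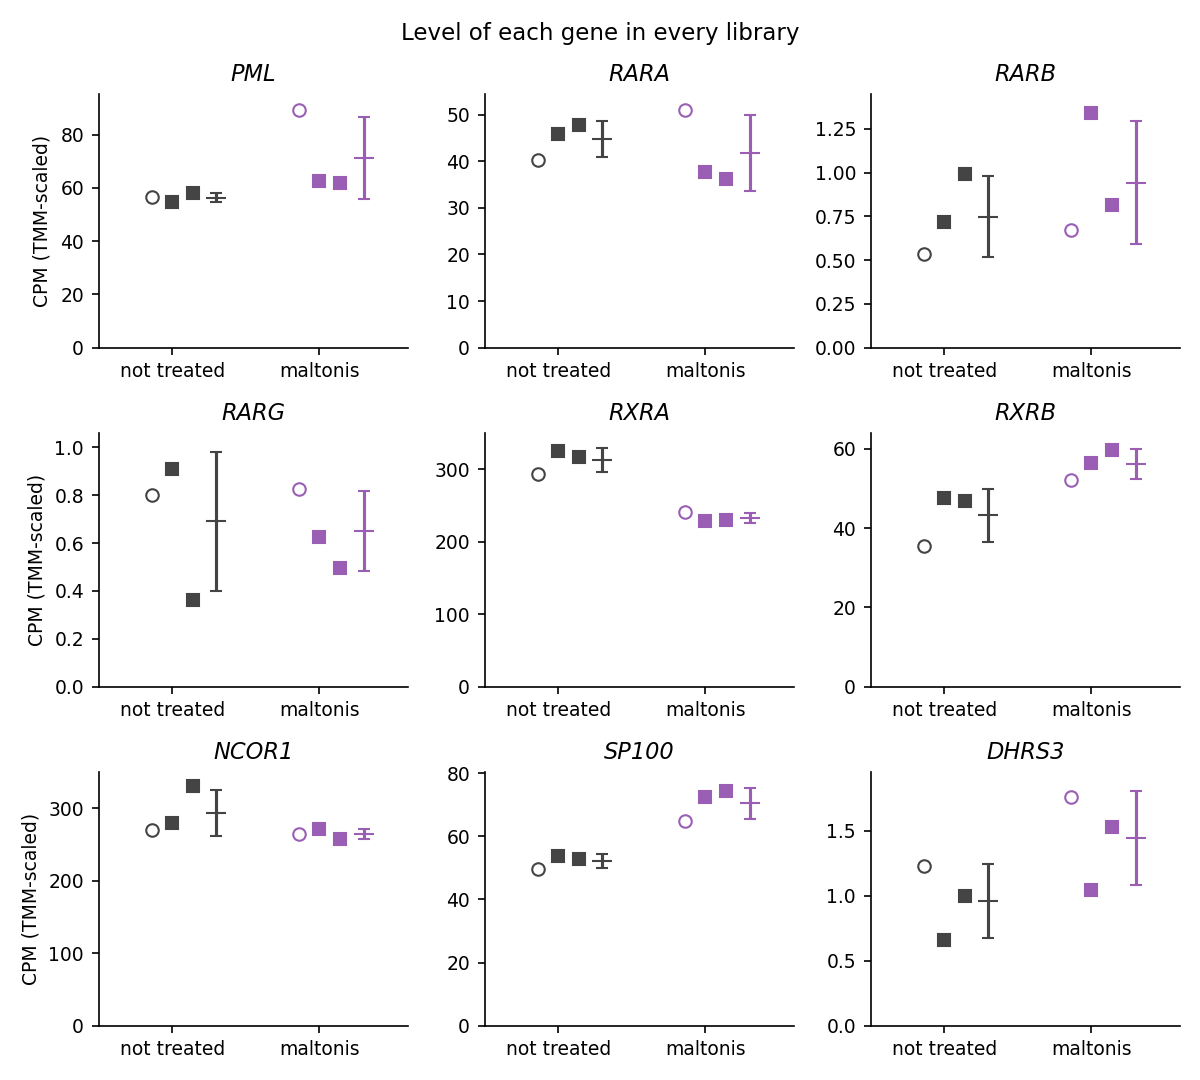
TMM-scaled CPM of the 9 genes in each library, with not treated libraries in grey and maltonis-treated ones in lilac. Open circles are replicate 1 (set A), filled squares replicates 2 and 3 (set B), and the bar beside them is the mean ± SD (n = 3). The treated replicate 1 stands above the other treated libraries for *PML* and *RARA*.

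*PML*, which encodes the organizer of nuclear bodies and the 5′ part of the fusion, stood at 56.5, 54.6 and 57.9 CPM in n.t. replicates 1, 2 and 3. In maltonis-treated cells it stood at 89.2, 62.8 and 61.8 CPM. All 3 treated libraries lay above the n.t. ones, but replicate 1 stood far above the others. The log2 fold change of *PML* was 0.34 (standard error 0.134, interval 0.03 to 0.64), and it did not pass the threshold (edgeR, adjusted p = 0.0482). Within set A the log2 difference was 0.65 and within set B 0.15. Without maltonis replicate 1 the log2 fold change was 0.12 (edgeR, adjusted p = 0.105), so that the size of the difference rested largely on this library. Without each of the other libraries it was between 0.31 and 0.40.

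*RARA*, the receptor gene of the fusion, had log2 differences of opposite sign in the 2 sets of libraries. Its level was 40.4, 46.0 and 47.8 CPM in n.t. replicates 1, 2 and 3, and 51.1, 37.7 and 36.3 CPM in the treated ones. The treated libraries therefore held both the highest and the lowest values, and the groups overlapped. Over all 6 libraries the log2 fold change was −0.11 (standard error 0.133, interval −0.41 to 0.20, edgeR adjusted p = 0.482). The log2 difference was 0.34 within set A and −0.34 within set B. In set B alone, a fit chosen after seeing the data, *RARA* was lower with a log2 fold change of −0.34 (edgeR, adjusted p = 0.000636). Without maltonis replicate 1 it was −0.30 (edgeR, adjusted p = 0.0267).

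The difference of the maltonis effect between the sets was tested in a fit, also chosen after seeing the data, with an interaction of set and treatment. For *RARA* the effect was lower in set B than in set A by a log2 of 0.68 (edgeR interaction, adjusted p = 0.0277). In this fit 1.03% of all genes passed an FDR of 0.05 and 0.197% an FDR of 0.01. For *PML* it was lower by 0.51 (edgeR interaction, adjusted p = 0.0624). Set A has 1 library per group, so its own spread is not measured, and a difference between the sets cannot be told apart from a deviation of single libraries. Over all genes tested, 9.71% had opposite signs in the sets, and 3.2% had a gap between the sets at least as large as that of *RARA* and 7.19% at least as large as that of *PML*. For the other 7 genes the adjusted p-value of the interaction in edgeR lay between 0.389 and 0.992.

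**Figure D2:**
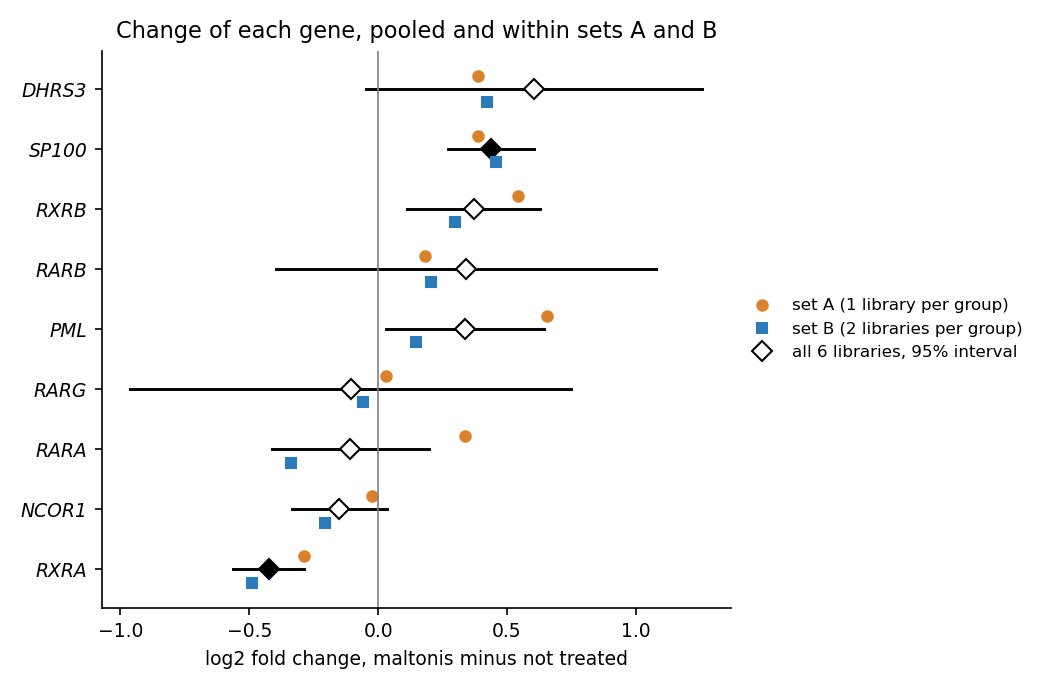
Log2 fold change of each gene after maltonis. Diamonds with lines are the fit of all 6 libraries with its 95% interval (filled where the FDR was under 0.01), orange circles the log2 difference within set A and blue squares that within set B, both on log2(CPM + 0.5), which draws genes of low level toward 0. *RARA* lies at 0.34 in set A and −0.34 in set B.

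While neither *PML* nor *RARA* passed the threshold, the difference of their levels within a library separated the groups. *PML* alone separated them too, as did 76.6% of all genes tested. How many gene pairs separate the groups was not examined, so this is not shown to be particular to *PML* and *RARA*. The log2 level of *PML* minus that of *RARA*, each taken as log2(CPM + 0.5) without regard to gene length, was 0.48, 0.25 and 0.28 in n.t. replicates 1, 2 and 3. It was 0.80, 0.73 and 0.76 in the maltonis-treated replicates. Each treated library lay above each n.t. library. The mean went from 0.33 ± 0.13 to 0.76 ± 0.04 (SD, n = 3), an increase of 0.43 (two-sided exact permutation test, p = 0.1, the smallest possible). The increase was 0.32 in set A and 0.48 in set B. The same difference between *PML* and *SP100* was not separated, with 0.19, 0.02 and 0.13 in n.t. and 0.45, −0.20 and −0.26 in treated libraries (two-sided exact permutation test, p = 0.7). Its mean change of −0.12 was −0.35 without maltonis replicate 1 and 0.01 without maltonis replicate 3.

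**Figure D3:**
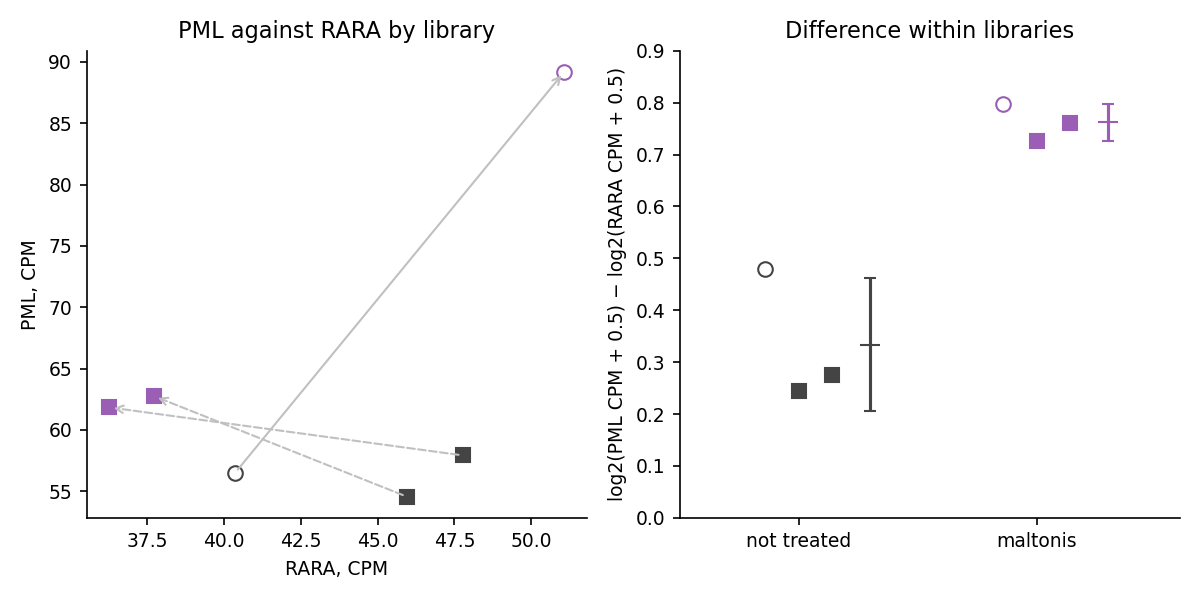
Left, CPM of *PML* against CPM of *RARA* in each library (grey, not treated; lilac, maltonis; open circles, replicate 1), with axes that do not start at 0 and arrows that link libraries of the same replicate number. Right, the log2 difference of *PML* and *RARA* in each library with the mean ± SD (n = 3). The treated libraries sit between 0.73 and 0.80 and the not treated ones between 0.25 and 0.48.

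The other retinoic acid receptors had few counts. *RARB*, itself a classical target of retinoic acid through the repeat printed above, had 10, 26 and 33 counts in n.t. and 13, 45 and 23 counts in treated libraries. This corresponds to 0.53, 0.72 and 1.00 CPM in n.t. and to 0.67, 1.34 and 0.82 CPM in treated replicates 1, 2 and 3, and the groups overlapped. Its log2 fold change of 0.34 had a standard error of 0.323 (interval −0.40 to 1.08, edgeR adjusted p = 0.362). *RARG*, which encodes RARγ, had 15, 33 and 12 counts in n.t. and 16, 21 and 14 counts in treated libraries. Its log2 fold change was −0.11 (interval −0.96 to 0.75, edgeR adjusted p = 0.806). Both intervals were wide and included 0. Both low genes also changed sign when single libraries were left out, *RARB* to −0.07 without maltonis replicate 2, and *RARG* to 0.24 without n.t. replicate 2 and to 0.02 without maltonis replicate 3.

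Per length, *RARA* made up nearly all of the receptor transcripts of its family. Levels were divided by the summed length of all annotated exons (RPKM), since only levels per length can be set side by side between genes. In n.t. cells *RARA* was at 9.45 ± 0.815 RPKM, *RARB* at 0.202 ± 0.063 RPKM and *RARG* at 0.135 ± 0.0566 RPKM (SD, n = 3). The share of *RARA* in the 3 receptors was 96.6%, 96.3% and 96.7% in n.t. and 96.9%, 94.3% and 96.0% in treated libraries. These shares overlapped (two-sided exact permutation test, p = 0.5), and they include the reads of the fusion. 

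Of the RXR receptors, the DNA-binding partners of RARα, 1 was lower in treated cells. *RXRA*, the main partner, was at 293.5, 325.3 and 317.2 CPM in n.t. and at 240.5, 228.2 and 229.1 CPM in treated replicates 1, 2 and 3. All treated libraries lay below all n.t. libraries. *RXRA* was lower by a factor of 1.34, with a log2 fold change of −0.42 (standard error 0.0602, interval −0.56 to −0.29, edgeR adjusted p = 0.000215). The log2 difference was −0.29 in set A and −0.49 in set B.

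*RXRB*, which encodes the paralog RXRβ, was at 35.6, 47.5 and 46.7 CPM in n.t. and at 52.1, 56.5 and 59.6 CPM in treated replicates, again without overlap. Its log2 fold change of 0.37 (standard error 0.113, interval 0.11 to 0.63) was just short of the threshold (edgeR, adjusted p = 0.0160). With the replicate number as a block it passed, with a log2 fold change of 0.38 (edgeR, adjusted p = 0.000723), in a fit where 69.8% of all genes did. Without maltonis replicate 2 the log2 fold change of *RXRB* was 0.34 (edgeR, adjusted p = 0.0727). Without maltonis replicate 3 it was 0.30 (edgeR, adjusted p = 0.0968). *RXRB* passed in 7 of 16 alternative fits. The log2 difference was 0.54 in set A and 0.30 in set B. *RXRG* had at most 2 counts in any library, under the floor of detection.

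The share of *RXRA* in the RXR transcripts per length was therefore smaller in treated cells. It was 74.5%, 70.8% and 70.6% in n.t. replicates 1, 2 and 3 and 61.9%, 58.8% and 57.6% in treated ones. The mean went from 72.0% ± 2.19 to 59.5% ± 2.23 (SD, n = 3), a difference of −12.5 percentage points without overlap (two-sided exact permutation test, p = 0.1, the smallest possible). The size of the shares depends on the lengths, and with the longest transcript as length the difference was −10.9 percentage points. With counts not divided by length it was −7.31 percentage points. The receptors are similar in sequence, and values are uncertain where the counting could have split reads of paralogs.

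**Figure D4:**
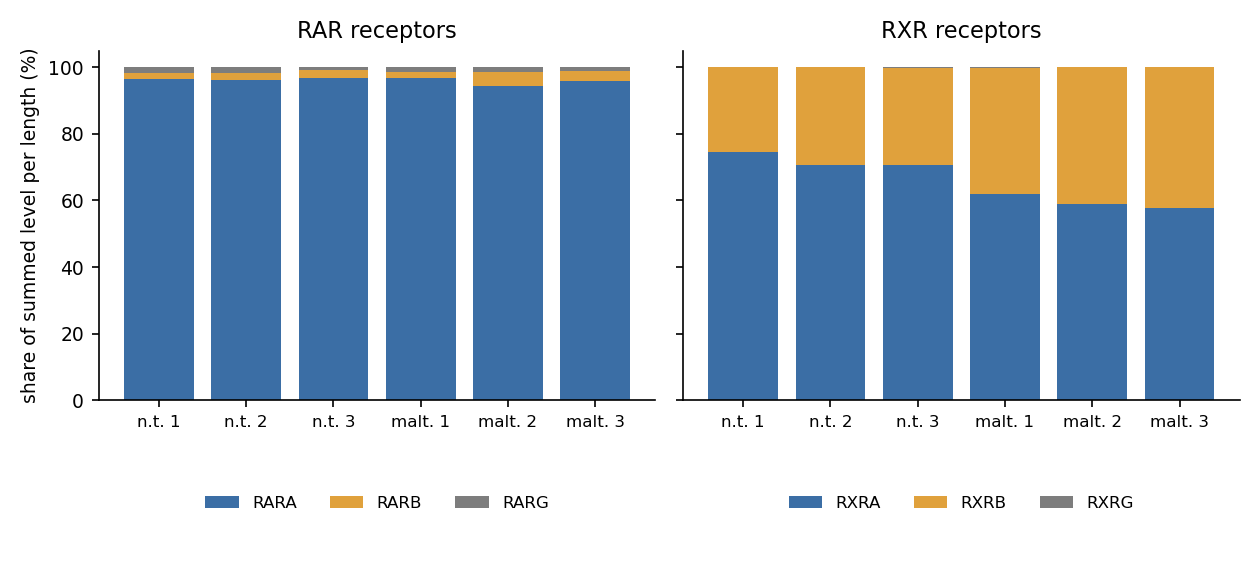
Share of each receptor in the summed level per length of its family, in percent, for each not treated (n.t.) and maltonis-treated (malt.) library. *RARA* fills between 94.3% and 96.9% of the RAR bars in every library, while *RXRA* fills between 70.6% and 74.5% of the RXR bars in not treated and between 57.6% and 61.9% in treated libraries.

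*NCOR1*, the corepressor that unliganded receptors and the fusion recruit, was at 269.5, 280.1 and 330.1 CPM in n.t. replicates 1, 2 and 3 and at 264.9, 270.7 and 256.9 CPM in treated ones. The groups overlapped, with n.t. replicate 3 the highest. The log2 fold change was −0.15 (standard error 0.0808, interval −0.34 to 0.03, edgeR adjusted p = 0.121). The log2 difference was −0.02 in set A and −0.21 in set B. Without n.t. replicate 3 it was −0.06 (edgeR, adjusted p = 0.367).

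*SP100*, the nuclear body partner of PML, was the one gene of the 9 that rose past the threshold. It was at 49.6, 53.7 and 52.9 CPM in n.t. and at 65.0, 72.4 and 74.3 CPM in treated replicates 1, 2 and 3. Each treated library lay above each n.t. library, and the sets gave like differences, 0.39 in set A and 0.46 in set B. *SP100* was 1.35-fold higher, with a log2 fold change of 0.44 (standard error 0.0722, interval 0.27 to 0.60, edgeR adjusted p = 0.000541).

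*DHRS3* encodes an enzyme that turns retinaldehyde back into retinol, and it is a known target of retinoic acid. It had only 23, 24 and 33 counts in n.t. and 34, 35 and 43 counts in treated libraries. In CPM this was 1.23, 0.66 and 1.00 in n.t. and 1.76, 1.04 and 1.53 in treated replicates, with treated replicate 2 below n.t. replicate 1. The log2 fold change was the highest of the 9 genes, 0.61, but its standard error of 0.285 left an interval of −0.05 to 1.26 (edgeR, adjusted p = 0.0839). The log2 difference was 0.39 in set A and 0.42 in set B on log2(CPM + 0.5), which reduces the differences of such a low gene. Without n.t. replicate 2 the log2 fold change was 0.36 (edgeR, adjusted p = 0.298), lower than that of *SP100* in the same fit (0.45).

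In n.t. cells the order of the levels per length was *RXRA* (28.2 RPKM), *NCOR1* (19 RPKM), *RXRB* (11 RPKM), *RARA* (9.45 RPKM), *PML* (4.45 RPKM), *SP100* (4.13 RPKM), *DHRS3* (0.317 RPKM), *RARB* and *RARG*. The libraries of *RXRB* and *RARA* overlapped, as did those of *DHRS3* and *RARB* and those of *RARB* and *RARG*, so these neighbours were not separated. In treated cells the order was the same, but *RXRB* at 14.3 ± 0.961 RPKM lay apart from *RARA* at 8.81 ± 1.72 RPKM (SD, n = 3), and *PML* and *SP100* overlapped at 5.63 and 5.59 RPKM. *DHRS3* and *RARB* still overlapped, while *RARB* and *RARG* lay apart. The places of *PML*, *SP100* and *RARA* depend on the length used. With the longest transcript, *SP100* was above *PML* in n.t. cells, at 13.4 against 10.4 RPKM. In treated cells *SP100* was then also above *RARA*, at 18.2 against 13.7 RPKM, and the libraries of *RARA* overlapped with those of *SP100* and of *PML*.

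The 9 genes were then set among further genes of their pathways, in lists written by hand. The counts and medians of a list include those of the 9 genes that belong to it. The lists are described by counts at an FDR under 0.01 and by the median log2 fold change, beside 64% called and a median of 0.01 over all genes tested. Of 28 genes of PML nuclear bodies and of the SUMO pathway that modifies PML, all tested, 11 were higher and 10 lower. Their median of 0.05 lay between 0.01 and 0.11 when single libraries were left out. It was 0.13 with upper quartile scaling and 0.17 with total counts scaling, which moved the median of all genes as well. The highest values were those of 2 relatives of SP100 that are known as interferon-inducible, *SP140* with a log2 fold change of 2.87 (standard error 0.180, edgeR adjusted p = 1.39e-06) and *SP110* with 1.70 (standard error 0.0895, edgeR adjusted p = 5.41e-07). *HIPK2*, a kinase of nuclear bodies, fell by 3.14 on the log2 scale (standard error 0.164, edgeR adjusted p = 5.14e-07). *PIAS3*, a SUMO ligase, fell by 1.43 (standard error 0.141, edgeR adjusted p = 2.19e-05).

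Of 16 corepressors and coactivators of nuclear receptors, 15 were tested, with 2 higher, 5 lower and a median of −0.08. With upper quartile scaling, with total counts scaling and without maltonis replicate 2, 3 were lower. The median was 0.01 and 0.04 under these scalings and 0.11 without n.t. replicate 3, so its sign was not stable. In the NCOR1 complex, *TBL1X* fell by 1.20 (standard error 0.113, edgeR adjusted p = 1.68e-05), while *GPS2* rose by 0.93 (standard error 0.110, edgeR adjusted p = 6.98e-05). The acetyltransferase gene *KAT2B* rose by 1.01 (standard error 0.135, edgeR adjusted p = 0.000148), and *CARM1*, an arginine methyltransferase, fell by 0.47 (standard error 0.0804, edgeR adjusted p = 0.000662).

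Of 23 genes that make, bind or break down retinoids, 14 were tested, and 7 were lower and 3 higher, with a median of −0.69. The median was −1.04 without n.t. replicate 2 and −1.06, −1.11 and −1.02 without maltonis replicate 1, 2 or 3. In each of these fits 15 genes of the list were tested, so the set of genes differed from that of the reported fit. With 14 genes tested, the median was −0.74 without n.t. replicate 1 and −0.67 without n.t. replicate 3. *RBP4*, the retinol carrier, went from 70, 116 and 99 counts in n.t. to 5, 11 and 9 counts in treated libraries, a log2 fold change of −3.39 (standard error 0.207, edgeR adjusted p = 1.22e-06). *STRA6*, the receptor for that carrier, went from 21, 31 and 26 counts to 2, 1 and 2 counts (edgeR, adjusted p = 4.41e-05). The summed level of *STRA6* was 14.3 times as high in n.t. as in treated cells, with a 95% exact binomial interval of 5.89 to 45.4 that covers counting error only. *CRABP2*, a carrier of retinoic acid into the nucleus, rose from 3, 5 and 4 counts to 12, 22 and 20 counts, a log2 fold change of 2.25 (standard error 0.303, edgeR adjusted p = 0.000155). *RETSAT*, a retinol saturase, rose by 0.70 (standard error 0.0807, edgeR adjusted p = 6.03e-05). *CRABP2* passed the filter on low counts through its treated libraries only, and *STRA6* and *RBP4* through their n.t. libraries. The counts of 7 lower and 3 higher genes include them, and their adjusted p-values are given as description only. *STRA6* lay under the floor of 3 counts in treated cells, and *CRABP2* was at the floor in n.t. replicate 1. Most of these transcripts were scarce in NB4, and 9 of the 23 genes were too low to test.

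Genes known to be induced by retinoic acid did not share a direction. Of 20 genes, 15 were tested, with 5 higher, 4 lower and a median of 0.34, which is the value of *RARB* itself. The median was 0.59 without n.t. replicate 3. *ID2* and *ID1*, inhibitors of helix-loop-helix factors, rose by 2.55 and 2.21 (standard errors 0.0814 and 0.269, edgeR adjusted p = 4.87e-08 and 8.16e-05). *ID1* had 6, 12 and 9 counts in n.t. libraries and passed the filter on low counts through its treated libraries only. *CD38*, a surface enzyme that marks retinoid-treated myeloid cells, fell by 1.44 (standard error 0.0823, edgeR adjusted p = 8.44e-07), and *STRA6* was also on this list. *CYP26A1*, the retinoic acid-degrading enzyme whose induction is a classical sign of receptor activity, had 0, 4 and 7 counts in n.t. and 9, 14 and 12 counts in treated libraries. It did not pass the threshold (edgeR, adjusted p = 0.0142), and like *ID1* it passed the filter through its treated libraries only. *CYP26B1*, on the same list, went the other way, from 8, 7 and 14 counts to 2, 1 and 0 counts, and was too low to test. Both *CYP26* genes are named here after their values were seen.

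Of the other 11 genes known to be fused to *RARA* in rare leukemias, together with *PML* 12 tested, 7 were lower and 1 was higher, with a median of −0.33. *ZBTB16*, which encodes PLZF, fell by 1.29 (standard error 0.0954, edgeR adjusted p = 3.71e-06), and *STAT5B*, a cytokine-activated factor, fell by 0.91 on the log2 scale (standard error 0.0664, edgeR adjusted p = 3.54e-06). *NABP1*, listed under its older symbol *OBFC2A*, was the 1 gene of this list that was higher past the threshold, by 0.90 (standard error 0.0695, edgeR adjusted p = 4.88e-06).

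Of 13 other receptors that work with RXR or are activated alongside it, 10 were tested, with 3 higher and 3 lower and a median of 0.06, which was −0.20 with a stricter filter on low counts. With the replicate number as a block, 5 were higher and 4 lower. *VDR*, the vitamin D receptor, fell by 1.76 (standard error 0.133, edgeR adjusted p = 4.17e-06), and the orphan receptor *NR4A1* fell by 2.35 (standard error 0.133, edgeR adjusted p = 7.85e-07). *PPARG*, a fatty acid receptor, rose by 1.82 (standard error 0.126, edgeR adjusted p = 2.54e-06), and *NR4A2* rose by 1.37 (standard error 0.265, edgeR adjusted p = 0.00141).

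**Figure D5:**
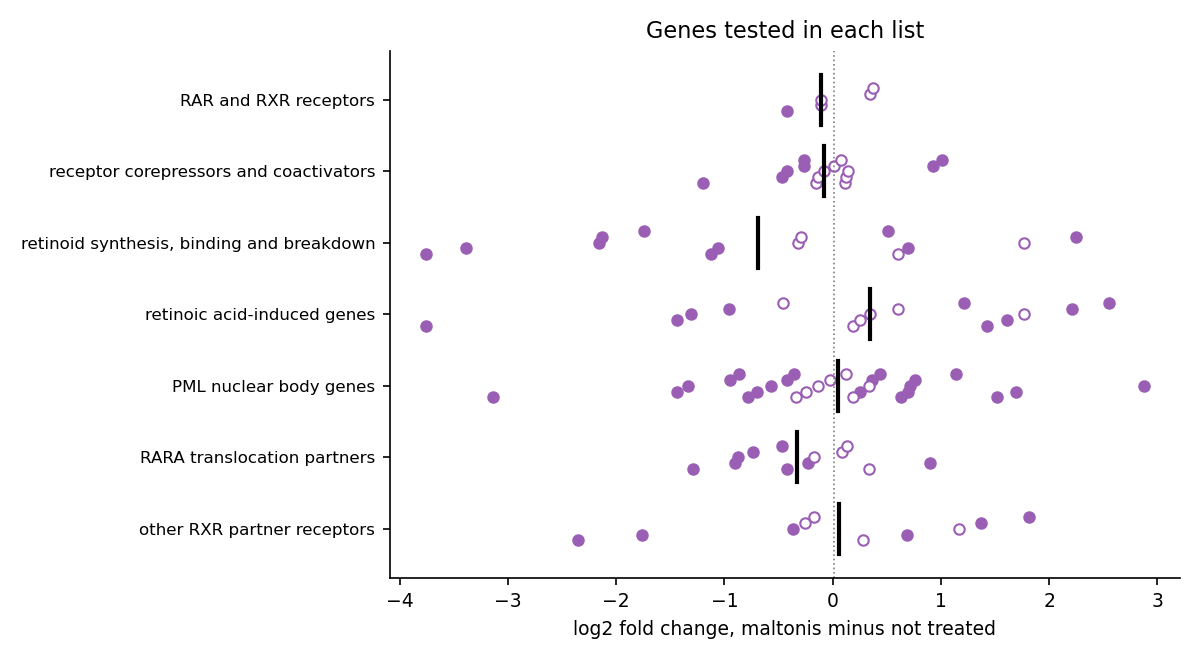
Log2 fold change after maltonis of every tested gene in 7 lists (filled, FDR under 0.01; open, not past it), with the median of each list as a black bar and that of all genes tested, 0.01, as a dotted line. The vertical spread of points within a list has no meaning. The retinoid synthesis list has the lowest median in the fit of all 6 libraries, −0.69.

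Genes next to *PML* and *RARA* on the chromosome were examined by their order in the RefSeq table. Beside *PML* on chromosome 15, *LOXL1*, a lysyl oxidase gene, fell by 3.04 on the log2 scale (edgeR, adjusted p = 1.32e-05), and *STOML1* had a log2 fold change of 0.11 (edgeR, adjusted p = 0.544). On the other side *GOLGA6A* was at 0 in every library and *ISLR2* was too low to test. Beside *RARA* on chromosome 17, *CDC6*, a replication licensing gene, fell by 0.40 (edgeR, adjusted p = 0.000306) and *WIPF2* rose by 0.52 (edgeR, adjusted p = 0.00102). On the other side *TOP2A*, a topoisomerase gene, rose by 0.30 (edgeR, adjusted p = 0.000877), and *GJD3* had a log2 fold change of 0.59 (edgeR, adjusted p = 0.0132). The neighbours thus differed among themselves in direction.

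The genes whose profile over the 6 libraries was most like that of *PML*, by the Euclidean distance of centred log2(CPM + 0.5), were *HLA-J*, *CCL2* and *NKD1*, at distances of 0.15, 0.15 and 0.16. Those most like *RARA* were *ATP13A1*, *RNF44* and *EGR1*, at 0.10, 0.12 and 0.15. None of these 6 genes passed an FDR of 0.01 (edgeR, adjusted p between 0.121 and 0.475), and all 6 had their highest or second highest level in maltonis replicate 1. Both properties follow from the choice by likeness to *PML* and *RARA* and are no separate result. *HLA-J* had only between 11 and 22 counts in a library. The distance between *PML* and *RARA* was 0.56, and *RARA* was at rank 2376 among the genes ordered by their distance to *PML*.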

How the data were processed

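The authors sequenced total RNA of NB4 cells (TruSeq Stranded Total RNA Gold) and deposited 1 table of HTSeq counts per library, with raw counts per gene symbol. Per the labels, the processing notes also name TopHat, Bowtie2 and hg19; the annotation and strand setting are not given in the sources used here, so reads of overlapping or antisense genes may have been shared. From these counts, all 6 libraries were fitted in edgeR (version 4.0.16, R 4.3.3) by quasi-likelihood with treatment as the only term, after removal of low genes by filterByExpr and scaling by TMM, and p-values were adjusted over 13209 genes. Standard errors were taken from the log2 fold change and its F statistic. Within-set differences used log2(CPM + 0.5). Lengths for RPKM came from GENCODE 29. Single values were compared with two-sided exact permutation tests (scipy 1.17.1). The scripts were tested on simulated data. For the edgeR fit these held few changed genes, with equal rises and falls and no difference between sets. That test does not cover changes as wide as those seen here.

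Named were the 9 genes, up to 2 highest and 2 lowest genes past the FDR in each pathway list, the 3 genes most like *PML* or *RARA*, and 2 neighbours per side of both. Cell type markers were part of this rule, and *CYP26A1* and *CYP26B1* were named outside it. The genes and lists were chosen with earlier results of these data known. Deviations from the group means correlated between libraries of the same replicate number (0.413, 0.137 and 0.220), and the numbers were therefore treated as pairs in an alternative fit. Within set B, libraries of different number correlated as well (0.208 and 0.235). Alternatives covered scaling, filters, DESeq2 (1.42.0), pairing, sets, lengths and single libraries.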

Additional observations from a re-analysis of the deposited data

How the results depend on the processing

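Of the 9 genes, *RXRA* (log2 fold change −0.49 to −0.31) and *SP100* (0.37 to 0.56) stayed past an FDR of 0.01 in all 16 alternative fits. The count of higher genes, 1 in the reported fit, was 2 with upper quartile scaling, total counts scaling, the DESeq2 test, the edgeR likelihood ratio test, the replicate block and, chosen after seeing the data, set B alone, where *RXRB* passed each time. It was 3 with set as a covariate, where *PML* also passed (log2 fold change 0.31, edgeR adjusted p = 0.00863), and 3 at an FDR under 0.05. The count of lower genes, 1 in the reported fit, was 2 in set B alone, with *RARA*. With the study's fold criterion both counts were 0. Under the replicate block *RXRB* (0.38) was the only one of the 9 genes whose call changed. The share of *RXRA* differed by −7.31 percentage points when counts were not divided by length. Total counts scaling moved the median of all genes by 0.119 on the log2 scale and turned *RARA* to 0.01 and *RARG* to 0.01. It also moved the split of all calls to 4902 higher and 3652 lower, from 4213 and 4239, and upper quartile scaling moved it to 4722 and 3820. The causes were not tested. *RARB*, *RARG* and *DHRS3* had at most 45 counts in a library, and the part of depth in their wide intervals was not tested.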
